A study of Mus musculus with 6 samples.

Results

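The secreted Wnt antagonists, 10 genes, were examined in RNA-seq counts from mouse palatal shelves at E14.25. They comprise the secreted frizzled-related proteins Sfrp1, Sfrp2, Sfrp4, Sfrp5 and Frzb, the Dickkopf proteins Dkk1, Dkk2 and Dkk3, the Wnt inhibitory factor Wif1, and Sostdc1. Members were chosen by symbol. All 10 were present among the 23366 genes of the count files, and all 10 were among the 14233 genes with enough counts to test. The groups were 3 wild type libraries (replicates 2, 3 and 4, genotype WT) and 3 knockout libraries (replicates 1, 2 and 3, genotype Kmt2dfl/fl Wnt1-Cre), each from paired palatal shelves of embryos described as biological replicates. Kmt2d encodes a histone methyltransferase that acts on lysine 4 of histone H3, and its human counterpart is mutated in Kabuki syndrome. Wnt1-Cre recombines floxed alleles in the neural crest lineage, from which most palatal mesenchyme descends, and leaves epithelium, blood vessels, blood cells and muscle fibres of the shelf untargeted. Whether the wild type embryos carried a Cre transgene or a floxed allele is not given in the labels. The question addressed here is how these inhibitors were expressed in the palate when Kmt2d was targeted in the neural crest.

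Wnt proteins are secreted signals that bind frizzled receptors and the coreceptors Lrp5 and Lrp6 and so stabilise beta-catenin in the receiving cell. The antagonists act outside the cell in 2 ways. The Sfrp proteins, Frzb and Wif1 bind Wnt proteins themselves, whereas Dkk1, Dkk2 and Sostdc1 bind the coreceptors. Wnt signalling is needed for outgrowth and fusion of the upper lip and secondary palate, and antagonists set where the signal acts.

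Gene counts totalled 12721979 to 24916079 per library. Knockout replicate 2 stood apart from the rest: it lay at 77.0 on principal component 1, against -31.0 to -1.46 in the other 5 libraries, and 47.5% of its read pairs fell outside genes, against 12.3% to 18.1%. Knockout replicates 1 and 3 differed in other measures. Their Rn45s percentages were 35.11 and 30.02, against 16.2 to 20.69 in the wild type and 18.57 in knockout replicate 2. Their trimmed mean of M-values factors were 0.8365 and 0.8963, against 1.058 to 1.128 and 1.04. Fits without knockout replicate 2 compare only these libraries with the wild type, and the effect of that was not tested. Each group held 1 library with high Xist and at most 1 Ddx3y count, wild type replicate 3 and knockout replicate 2. The Kmt2d transcript measured 193 ± 20.6 CPM in the wild type against 329 ± 184 CPM in the knockout (SD, n = 3 each; edgeR, adjusted p = 0.368). Knockout replicates 1, 2 and 3 stood at 254, 539 and 193.5 CPM, against 171 to 211 CPM in the wild type libraries. The higher mean thus rested mostly on knockout replicate 2, and knockout replicate 3 lay inside the wild type range. CPM values are a gene's counts scaled to a common normalised library size. Exons outside any deleted part add to the Kmt2d value, so it does not check the labels. All 12 palatal mesenchyme markers examined, among them Osr2, Tbx22, Pax9 and Shox2, were above 1 CPM on average. Results that rest on knockout replicate 2 are given with and without it. Values of single libraries are listed in the order replicate 2, 3, 4 for the wild type and 1, 2, 3 for the knockout.

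With all 6 libraries, 0 of the 10 antagonists differed between the groups at an adjusted p under 0.05 (edgeR quasi-likelihood test, Benjamini-Hochberg adjustment), where 0.534% of all tested genes did. At an unadjusted p under 0.05 there were 3 members, Sfrp1, Sfrp5 and Wif1, all lower in the knockout, against 6.69% of all genes in that direction. DESeq2 called 1 member, Sfrp1, against 3.41% of all genes, and limma voom called 0, against 0.422%. Without knockout replicate 2, Sfrp1 and Wif1 fell past the threshold and no member rose, against 1.57% of genes lower and 0.554% higher. The 3 knockout libraries lay wholly below the 3 wild type libraries for Sfrp1, Sfrp5, Dkk3 and Wif1, and wholly above them for Frzb. Among all tested genes 11.2% separated downward and 12.3% upward. The median log2 fold change, knockout over wild type, was -0.35 over the 10 members and 0.011 over all genes tested. Because shelves were measured whole, fewer cells of a type and less RNA per cell cannot be told apart in any of these values.

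**Figure D1:**
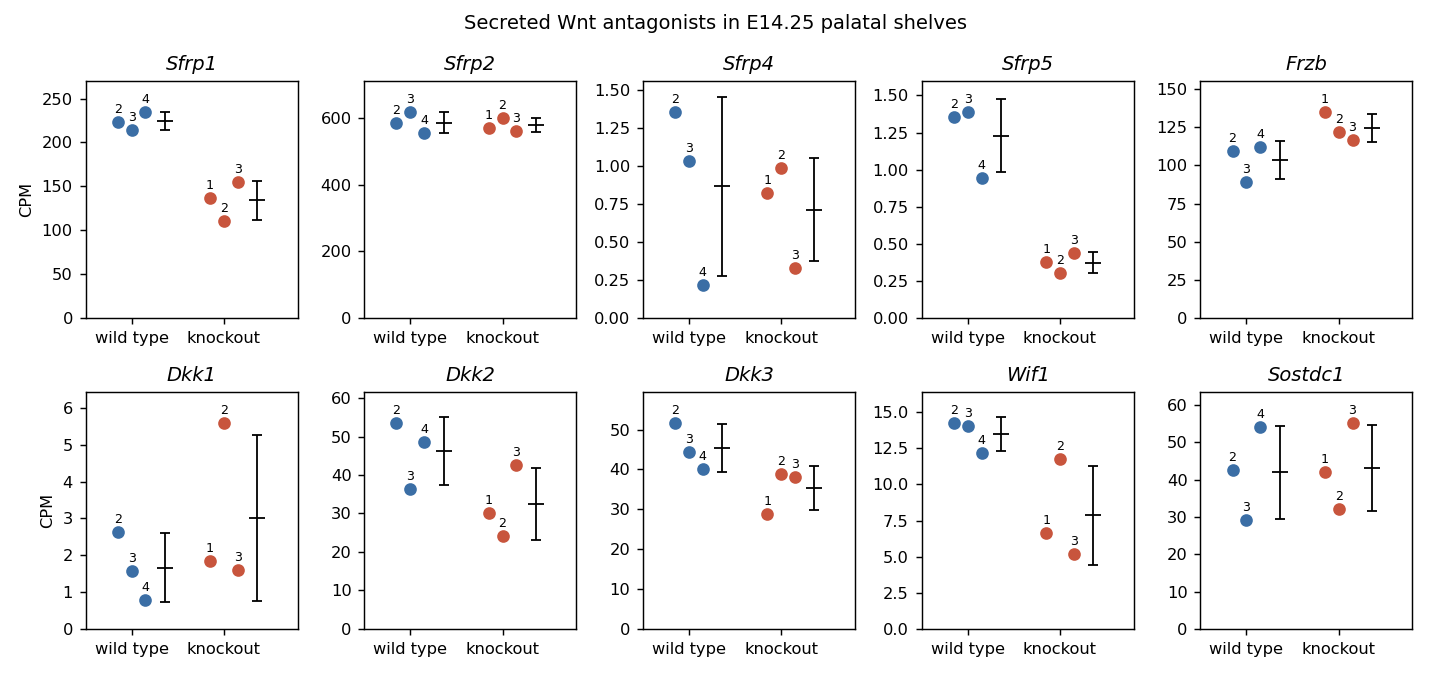
Level of each of the 10 antagonists in CPM (vertical axes from 0) in the wild type (blue) and knockout (red) libraries, with replicate numbers above the points and the mean and SD of each group in black beside them. Sfrp2 lies between 555 and 618 CPM in all 6 libraries, while the knockout libraries lie below every wild type library for Sfrp1, Sfrp5, Dkk3 and Wif1.

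Sfrp2 was the most abundant antagonist of the shelf, and its level differed little between the groups. Sfrp2 carries a frizzled-like cysteine-rich domain that binds Wnt proteins and a netrin-like domain. It stood at 585, 618 and 555 CPM in the wild type libraries and at 570, 601 and 561 CPM in the knockout libraries. The knockout values all lay inside the wild type range. The fitted fold change was 0.985, with a 95% interval of 0.832 to 1.17 (edgeR, adjusted p = 0.937), and a change within these bounds could not be detected here. In GENCODE M21 an exon of the antisense gene Gm26771 overlaps Sfrp2, and the strand setting of the counting is not given in the sources used here. Exons of the other 9 members overlapped no other gene in that annotation.

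Sfrp1, a close relative of Sfrp2 in the same subfamily, was lower in every knockout library. Sfrp1 stood at 224, 214 and 235 CPM in the wild type libraries and at 136, 111 and 155 CPM in the knockout libraries. The groups did not overlap, and the wild type libraries lay close together (10.4 CPM SD, n = 3) while the knockout libraries spread more widely (21.97 CPM SD, n = 3). The log2 fold change was -0.74 with a standard error of 0.14 (95% interval -1.06 to -0.42), a 1.67-fold lower level that missed the threshold over all genes (edgeR, adjusted p = 0.0846). Without knockout replicate 2, its lowest library, Sfrp1 fell by 0.63 on the log2 scale (SE 0.082, adjusted p = 0.00559). DESeq2 on all 6 libraries gave -0.75 with an adjusted p = 5.9e-05.

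The ratio of Sfrp1 to Sfrp2 counts does not depend on how libraries are scaled. It was 0.383, 0.346 and 0.423 in the wild type libraries and 0.239, 0.185 and 0.276 in the knockout libraries. The lowest wild type ratio thus lay above the highest knockout ratio, and since the pair was chosen with the levels known, no test is given.

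Sfrp5, the third member of that subfamily, was expressed near the limit of detection. It had 38, 31 and 22 counts in the wild type libraries and 6, 4 and 8 counts in the knockout libraries, which is 0.947 to 1.39 CPM against 0.303 to 0.442 CPM. A level of 3 counts corresponds to 0.107 to 0.227 CPM in these libraries, so the knockout values lay only a little above it. The groups did not overlap, and the log2 fold change of -1.68 had an interval of -2.67 to -0.69 (edgeR, adjusted p = 0.192, and 0.18 without knockout replicate 2). Sfrp4, of a separate subfamily with Frzb, was as scarce, with 5 to 38 counts in the wild type and 6 to 13 in the knockout. Its groups overlapped (log2 fold change -0.35, interval -1.98 to 1.29, adjusted p = 0.837).

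Frzb, an inhibitor known from developing cartilage and limb mesenchyme, was the one Wnt-binding antagonist with higher levels in every knockout library. Frzb stood at 109, 89.0 and 112 CPM in the wild type libraries and at 135, 122 and 117 CPM in the knockout libraries. The gap between the highest wild type and the lowest knockout library was small beside the spread in either group. The log2 fold change of 0.27 had an interval of -0.018 to 0.55 and did not pass (edgeR, adjusted p = 0.369, and 0.265 without knockout replicate 2). The Frzb value was 0.17 without wild type replicate 3. There were 0.461 ± 0.0387 Frzb counts per Sfrp1 count in the wild type (SD, n = 3) and 0.948 ± 0.175 in the knockout (SD, n = 3), and single knockout libraries ranged from 0.756 to 1.10.

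Wif1 binds Wnt proteins through a domain unrelated to that of the Sfrp family, and 1 library decided its call. It stood at 14.27, 14.03 and 12.1 CPM in the wild type libraries and at 6.64, 11.7 and 5.19 CPM in the knockout libraries. Knockout replicate 2 lay next to the wild type range, and the other 2 knockout libraries lay far below it. With all 6 libraries the log2 fold change was -0.79 with a standard error of 0.29 (edgeR, adjusted p = 0.323). Without knockout replicate 2, Wif1 fell by 1.20 on the log2 scale, or 2.30-fold, with a standard error of 0.18 (adjusted p = 0.0081). In that library the summed level of 10 skeletal muscle markers was 1289 CPM, against 233 to 553 CPM in the other 5. Myh3 gave 804 CPM of that sum, and Actc1 201 CPM against 62.0 to 146 CPM in the other 5. Myog, at 27.6 CPM, lay below the 31.4 CPM of wild type replicate 2. The part of muscle in the Wif1 level was not tested.

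The Dickkopf genes Dkk2 and Dkk3 were present at like levels and both had lower means in the knockout. Dkk2, which binds Lrp5 and Lrp6, stood at 53.6, 36.4 and 48.5 CPM in the wild type libraries and at 30.2, 24.2 and 42.6 CPM in the knockout libraries. Knockout replicate 3 lay above wild type replicate 3, so the groups overlapped (log2 fold change -0.51, interval -1.05 to 0.024, edgeR adjusted p = 0.364). The Dkk2 value was -0.35 without knockout replicate 2, its lowest library (edgeR, adjusted p = 0.473). Dkk3, a divergent member of the family whose effect on Wnt signalling is not settled, stood at 51.8, 44.4 and 40.0 CPM in the wild type libraries and at 28.9, 38.9 and 38.2 CPM in the knockout libraries. Its groups did not overlap, though by a narrow margin, and its log2 fold change of -0.36 did not pass (interval -0.73 to 0.0024, adjusted p = 0.353). The Dkk3 value was -0.24 without knockout replicate 1.

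Dkk1, an inhibitor that is itself induced by beta-catenin signalling and is needed for head formation, was low and variable. It stood at 2.63, 1.57 and 0.775 CPM in the wild type libraries and at 1.84, 5.60 and 1.60 CPM in the knockout libraries. Knockout replicate 2 alone lay above the wild type range. The log2 fold change was 0.81 with a standard error of 0.61 (edgeR, adjusted p = 0.545) and 4.8e-04 without that library. Leaving out wild type replicate 2 gave 1.33, and leaving out replicate 4 of that group gave 0.48.

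Sostdc1 binds both Lrp coreceptors and BMP proteins and is known for patterning teeth and palatal rugae. It stood at 42.6, 29.0 and 54.0 CPM in the wild type libraries and at 42.1, 32.2 and 55.2 CPM in the knockout libraries. Both groups covered nearly the same range, and the log2 fold change was 0.045 with an interval of -0.57 to 0.66 (edgeR, adjusted p = 0.95).

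**Figure D2:**
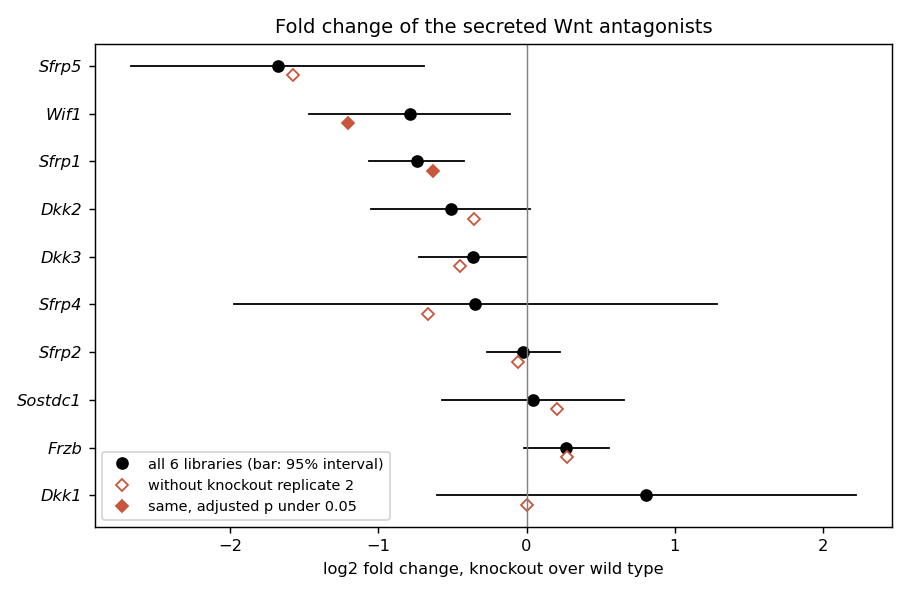
Log2 fold change of each antagonist, knockout over wild type. Black points and bars give the fit to all 6 libraries with its 95% interval, and diamonds the fit without knockout replicate 2, filled where the adjusted p is under 0.05. Filled diamonds are those of Wif1 at -1.20 and Sfrp1 at -0.63, and the Dkk1 diamond lies at 0 where its black point lies at 0.81.

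Promoter sequences from RefSeq (build GRCm38.p6) matched 6 of the 10 members, Sfrp2, Sfrp5, Frzb, Dkk1, Dkk2 and Wif1. The windows below are the 250 bases before the annotated start of 1 antagonist with a steady level and 2 with lower means in the knockout, shown to set their base composition side by side, each 5′ to 3′ on the strand of the gene. Capitals mark CG dinucleotides, whose density varies widely between promoters, and a TATAAA motif in Dkk2.
Sfrp2 (chr3:83766071-83766320, plus strand): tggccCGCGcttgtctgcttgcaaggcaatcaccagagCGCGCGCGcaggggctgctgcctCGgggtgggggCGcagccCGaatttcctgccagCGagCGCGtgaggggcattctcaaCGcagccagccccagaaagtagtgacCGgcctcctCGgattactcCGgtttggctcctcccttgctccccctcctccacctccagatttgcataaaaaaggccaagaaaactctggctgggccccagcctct
Sfrp5 (chr19:42202253-42202502, minus strand): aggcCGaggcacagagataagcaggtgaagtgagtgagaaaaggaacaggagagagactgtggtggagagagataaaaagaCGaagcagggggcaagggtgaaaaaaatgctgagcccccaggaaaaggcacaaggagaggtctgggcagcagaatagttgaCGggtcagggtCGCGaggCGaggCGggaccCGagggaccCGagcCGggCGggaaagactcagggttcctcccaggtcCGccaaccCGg
Dkk2 (chr3:132085042-132085291, plus strand): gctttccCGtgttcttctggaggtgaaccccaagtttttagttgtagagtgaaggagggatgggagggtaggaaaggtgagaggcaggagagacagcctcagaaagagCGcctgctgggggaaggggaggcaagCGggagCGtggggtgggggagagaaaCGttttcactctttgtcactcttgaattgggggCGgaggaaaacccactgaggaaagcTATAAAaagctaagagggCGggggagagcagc

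The Sfrp2 window held 16 CG dinucleotides, the Sfrp5 window 13 and the Dkk2 window 7, and those of Frzb, Dkk1 and Wif1 held 16, 6 and 21. Wif1, whose mean was also lower in the knockout, thus held more than the steady Sfrp2. The median over 32851 promoters was 6, with quartiles of 2 and 16. TATAAA was found on either strand in 3 of the 6 members, at 32 bases before the start of Dkk2, 54 before that of Dkk1 and 232 before that of Wif1, and in 12.4% of all promoters. The same windows were searched on both strands for CTTTGA, the core motif of the TCF/LEF factors through which beta-catenin acts, which does not overlap TATAAA. It was found in 13.8% of all promoters and in 2 of the 6 members, at 174 and 117 bases before the start of Dkk1 and 95 bases before that of Frzb. These matches are shown with their surroundings, the core in capitals, as read on the strand of the gene (TCAAAG is the core on the other strand). A match describes the letters of the window and does not show binding.
Dkk1 (chr19:30549655-30549680, minus strand): ggggagagtgTCAAAGtcctccctgc
Dkk1 (chr19:30549598-30549623, minus strand): cctcccaaagCTTTGAaatcccatcc
Frzb (chr2:80447476-80447501, minus strand): ccctgaaaacTCAAAGccttctcgga

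Levels were compared between members as CPM per kilobase of exon. In the wild type Sfrp2 came first at 272 ± 14.6 CPM per kilobase, followed by Sfrp1 at 51.3 ± 2.38 and Frzb at 31.96 ± 3.88 (SD, n = 3 each). Sostdc1 at 23.5 ± 7.03, Dkk3 at 13.5 ± 1.76, Dkk2 at 12.5 ± 2.39 and Wif1 at 5.55 ± 0.481 CPM per kilobase came next (SD, n = 3 each), and Dkk1, Sfrp5 and Sfrp4 were at 0.684, 0.647 and 0.207. Among neighbours in the wild type order, the ranges of single libraries overlapped for Frzb and Sostdc1, for Dkk3 and Dkk2, and for Dkk1 and Sfrp5, and did not overlap for Sfrp2 and Sfrp1, Sfrp1 and Frzb, Sostdc1 and Dkk3, Dkk2 and Wif1, Wif1 and Dkk1, or Sfrp5 and Sfrp4. In the knockout Frzb, at 38.5 ± 2.88 CPM per kilobase, stood above Sfrp1 at 30.7 ± 5.03 (SD, n = 3 each) and their ranges did not overlap, while the other 8 members held the same rank by mean.

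The 10 members together summed to 418, 410 and 407 CPM per kilobase in the wild type libraries and to 382, 386 and 389 in the knockout libraries. The knockout sums were all lower, and Sfrp2 made up most of each sum. Sfrp2 took 66.1% ± 3.48 of the sum in the wild type and 69.5% ± 2.69 in the knockout (SD, n = 3 each), and Sfrp1 12.5% ± 0.652 and 7.95% ± 1.27 (SD, n = 3 each).

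**Figure D3:**
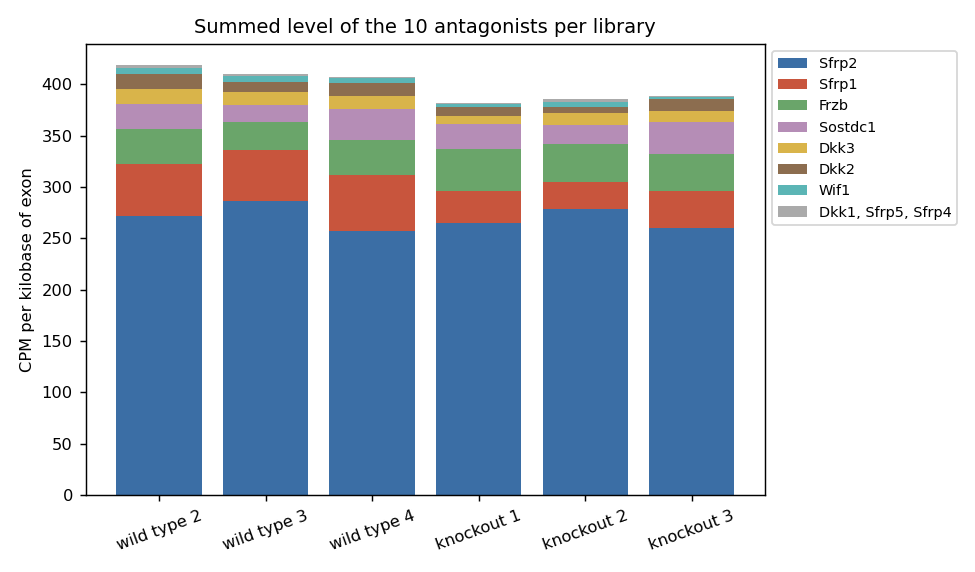
Level of the 10 antagonists in CPM per kilobase of exon, stacked for each library. Sfrp2 (blue) makes up most of each bar and the Sfrp1 segment (red) is shorter in the knockout libraries, at 25.4 to 35.4 against 48.9 to 53.7 CPM per kilobase in the wild type.

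In the rest of the Wnt pathway, Nkd1 alone passed the threshold among the 75 genes tested. Nkd1, an intracellular antagonist that is a feedback target of the pathway, fell from 27.5 ± 3.00 to 13.2 ± 1.70 CPM (SD, n = 3 each; edgeR, adjusted p = 0.0391). It did not pass when any 1 wild type library was left out. Without knockout replicate 2 it fell together with 4 others, the receptors Kremen1 and Ptk7, the inhibitor Igfbp4 and the target gene Tnfrsf19 (Ptk7 and Tnfrsf19 named after their values were seen). In that fit 1.57% of all tested genes fell past the threshold. DESeq2 with all libraries called 11 lower and 1 higher, against 3.41% of all genes in either direction. Of 12 target and feedback genes 0 rose and 1 fell past the threshold, with a median log2 fold change of -0.41. The list was mixed, with 9 negative and 3 positive values, and groups that did not overlap for 4 lower genes and 1 higher gene. Over all tested genes, 11.2% were separated lower and 12.3% higher. The higher gene, Lef1, stood at 10.31 to 16.66 CPM in the wild type and 20.89 to 26.96 CPM in the knockout (log2 fold change 0.74, edgeR adjusted p = 0.217). Axin2, Myc and Dact1 changed little (-0.17, 0.038 and -0.024). Lower values that did not pass included those of Ccnd1 (-1.08, edgeR adjusted p = 0.15), Tcf7 (-0.84), Tnfrsf19 (-0.74) and Nkd2 (-0.70). Sp5 had a positive value that did not pass (0.86). Of 13 Wnt ligands 0 passed, 11 of 13 had negative values against 6899 of all 14233 genes tested, and the median was -0.67. The ligand median was -0.40 without knockout replicate 2, with 10 of 13 negative, and those of the antagonists and of the target and feedback genes were also -0.40 in that fit. The ligand with the smallest p, Wnt10b, stood at 4.24 ± 0.528 CPM against 1.62 ± 0.416 CPM in the knockout (SD, n = 3 each; adjusted p = 0.111).

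Of 19 receptors and coreceptors 0 passed and the median was -0.13. The smallest p was that of Kremen1, the transmembrane protein with which Dkk1 and Dkk2 remove Lrp6 from the cell surface. Kremen1 stood at 63.9, 60.7 and 52.7 CPM in the wild type libraries and at 42.7, 44.6 and 42.6 CPM in the knockout libraries (edgeR, adjusted p = 0.172). It fell past the threshold without knockout replicate 2 (log2 fold change -0.48, adjusted p = 0.041). Of 6 R-spondin and Lgr genes, which enhance Wnt signalling, 0 passed, with a median of -0.38 and the smallest p for the ligand Rspo1 (14.7 ± 1.41 and 5.34 ± 3.66 CPM, SD, n = 3 each; adjusted p = 0.235).

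Of 8 other inhibitors that act outside the cell or at its surface, 0 passed and the median was -0.45. The smallest p was that of Igfbp4, an IGF-binding protein that also binds frizzled and Lrp6, at 595 ± 23.97 CPM against 395 ± 79.1 CPM in the knockout (SD, n = 3 each; edgeR, adjusted p = 0.214, and 0.0234 without knockout replicate 2). Of 17 genes of Wnt secretion and intracellular transduction 0 passed, 13 of 17 had positive values and the median was 0.12. Bcl9l, a beta-catenin cofactor, had the smallest p there (98.7 ± 6.16 and 72.9 ± 7.10 CPM, SD, n = 3 each; adjusted p = 0.191). The Wnt ligands summed to 37.3, 38.6 and 41.1 CPM per kilobase in the wild type libraries and to 40.0, 20.2 and 34.1 in the knockout libraries. The 10 antagonists thus amounted to 11.2, 10.6 and 9.91 times the ligands in the wild type libraries and to 9.54, 19.1 and 11.4 times in the knockout libraries, where knockout replicate 2 alone lay outside the wild type range by a wide margin.

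**Figure D4:**
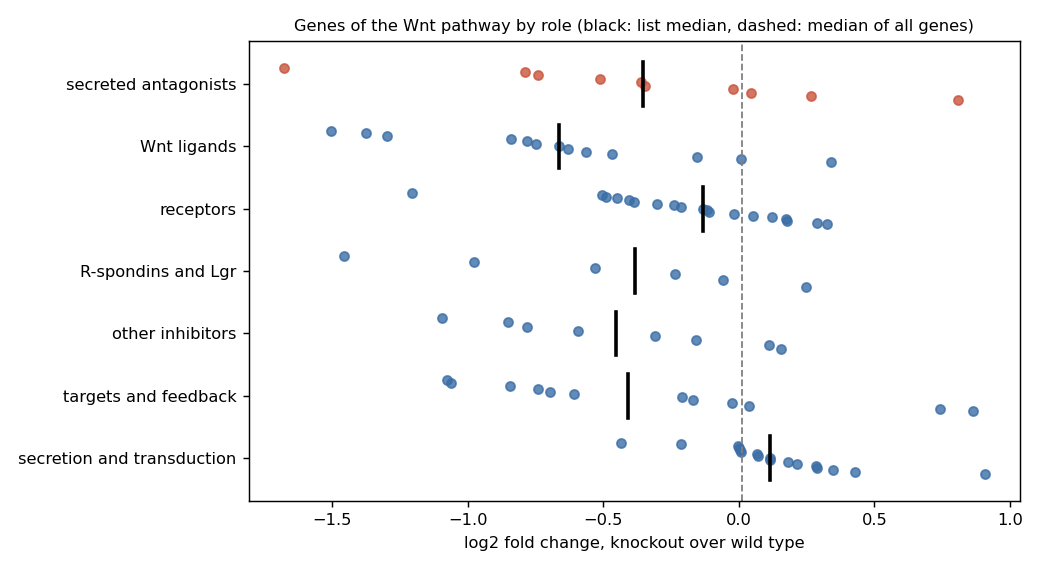
Log2 fold change, knockout over wild type, of each tested gene of the Wnt pathway grouped by role, with antagonists in red, list medians as black bars and the median of all genes (0.011) as a dashed line. Medians lie between -0.67 for the ligands and 0.12 for secretion and transduction, and that of the secreted antagonists is -0.35. The medians of ligands, antagonists and target genes are all -0.40 without knockout replicate 2.

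Markers of other cell types moved with the groups beside these values. The summed level of 12 epithelial markers was 632 to 775 CPM in the wild type and 341 to 603 CPM in the knockout, lowest in knockout replicate 2. All 12 had negative log2 fold changes, against 6899 of all 14233 genes tested. Of the 12, 0 passed, and the smallest p was that of Krt19 (edgeR, adjusted p = 0.143). Without knockout replicate 2, 10 of the 12 were negative, against 6755 of 14450 genes tested. The epithelial median was -0.61 with all libraries and -0.38 in that fit. In the fit to all 6 libraries, 9 of 10 cartilage markers were tested and all 9 were negative, with the smallest p for Col9a2 (edgeR, adjusted p = 0.0834). The 10 summed to 1434, 486 and 415 CPM in the wild type libraries and to 299, 152 and 356 CPM in the knockout libraries. The top of the wild type range was thus replicate 2 alone. Sums were 281 to 310 and 217 to 253 CPM for 8 endothelial markers (smallest p for Esam, adjusted p = 0.26) and 57.1 to 64.0 and 38.7 to 45.4 CPM for 8 leukocyte markers (smallest p for Mrc1, adjusted p = 0.0528). The 12 palatal mesenchyme markers summed to 1699 to 1774 CPM in the wild type and 1942 to 2264 CPM in the knockout. Prrx1 was the largest part of these sums, at 591 ± 34.8 and 801 ± 135 CPM (SD, n = 3 each). The list was mixed, with 7 positive and 5 negative values, and 5 positive and 7 negative without knockout replicate 2. Its median log2 fold change was 0.077, and -0.0024 without that library. The smallest p was that of Lhx8 (edgeR, adjusted p = 0.115). No gene of these lists was at 0 counts in all libraries, and their part in the levels of the antagonists was not tested. Without knockout replicate 2, the epithelial Cdh1, Krt18 and Krt19, the tendon factor Scx and the macrophage receptor Mrc1 fell past the threshold. The mesenchymal Lhx8 rose past it in that fit, where 1.57% of all genes fell and 0.554% rose.

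Sums of the remaining markers overlapped between the groups. They were 282 to 451 and 326 to 541 CPM for 10 osteoblast markers (smallest p for Phex, adjusted p = 0.334), 94.6 to 162 and 54.7 to 174 CPM for 8 neuronal markers (Syt1, adjusted p = 0.255), 68.5 to 70.9 and 56.6 to 74.2 CPM for 8 Schwann cell and melanoblast markers, 72.7 to 79.1 and 63.0 to 76.9 CPM for 6 tendon markers (Scx, adjusted p = 0.0528), 27.7 to 46.2 and 19.9 to 55.5 CPM for 6 erythroid markers (Hbb-b1, adjusted p = 0.389, with Hba-a1 at 0 counts in each library), and 273 to 553 and 233 to 1289 CPM for 10 muscle markers (Myh3, adjusted p = 0.504).

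The genes whose pattern over the 6 libraries was most like that of the 3 most abundant antagonists were ranked by Pearson's r of log2 CPM among 9216 genes with a mean of at least 10 CPM. For Sfrp1 they were Abat (r = 0.998), Pea15a (0.997) and Galnt10 (0.991), whose log2 fold changes were -0.49, -0.52 and -0.69. For Sfrp2 they were Pag1 (0.983), Uvrag (0.981) and Ssfa2 (0.955), and for Frzb Rbpms (0.98), Zfp639 (0.979) and Iqgap2 (0.964). These correlations describe the 6 libraries, which share their group structure and depth. Among the members, the highest correlation over the same libraries was that of Sfrp1 with Sfrp5 (0.937) and the lowest that of Sfrp2 with Sostdc1 (-0.965).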

How the data were processed

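Libraries were made with a stranded mRNA kit and sequenced as paired 25 bp reads, per the labels' protocols. The submitters' processing notes name TopHat2, SAMtools, HTSeq and mm9 without versions. No annotation or strand setting for the counting is given there. Each deposited file holds raw counts per gene symbol of 1 library. The 5 category lines were left out of library sizes. CPM and fold changes were computed here with edgeR 4.0.16 in R 4.3.3 (trimmed mean of M-values, filterByExpr, robust quasi-likelihood fit, no covariate, Benjamini-Hochberg at 0.05), with limma 3.58.1 and DESeq2 1.42.0 as alternatives, after a check on simulated counts. Standard errors are the log2 fold change over the square root of F. Exon lengths came from GENCODE M21 and promoters from RefSeq, both of a later build than the counts. No pair of same-group libraries agreed within sampling noise (chi-square per degree of freedom 11.0 to 153). Nothing in the labels names litters, so p-values measure the spread between these libraries.

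The members and gene lists were chosen with earlier results of these data known. All members were named, with up to 4 genes past the threshold or else the smallest p of each other Wnt list, the smallest p of each marker list, and the 3 genes most correlated with each of the 3 members of highest level per kilobase. Predicted genes and unnamed clones were left out of that last ranking. Some target, receptor and marker genes outside this rule were named as well. Alternatives were other size factors, tools and filters, leaving out each library and a replicate block.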

Additional observations from a re-analysis of the deposited data

How the results depend on the processing

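The count of members lower past the threshold, 0, became 1 under DESeq2, and 0 to 2 with single libraries left out (2 without knockout replicate 2, Sfrp1 and Wif1). No member was higher past the threshold in any fit. The median of -0.35 was -0.25 under limma voom and ran from -0.46 (without wild type replicate 4) to -0.14 (without wild type replicate 2) when 1 library was left out. The 1 member separated upward became 1 to 2 with single libraries left out. In the other Wnt lists, 1 lower gene became 11 and 0 higher became 1 under DESeq2, and the lower count was 0 to 5 with single libraries left out (0 without any 1 wild type library, 2 without knockout replicate 3, 5 without knockout replicate 2). Marker genes past the threshold numbered 0 to 6, 6 without knockout replicate 2. Over all genes the count of 76 became 486 under DESeq2 and 0 to 307 with single libraries left out. Fold changes of low or steady members changed sign: with single libraries left out, Sfrp2 ran from -0.061 to 0.016 (positive without wild type replicate 3), Sfrp4 from -0.79 to 0.16 (0.03 without knockout replicate 3, 0.16 without wild type replicate 2) and Sostdc1 from -0.17 (without knockout replicate 3; -0.16 without wild type replicate 3) to 0.27. Sfrp1 stayed between -0.86 and -0.63 with single libraries left out (adjusted p = 0.00559 to 0.358). Median-of-ratios and upper quartile scaling moved all fold changes by medians of -0.0082 and -0.013, and neither they nor the filters changed a member's call or sign. Using the longest transcript as length changed no rank. Where causes are not named, the cause was not tested. Groups share only the replicate numbers 2 and 3, whose libraries deviated from their group means with correlations of 0.207 and -0.141. Whether the numbers pair the samples is not given in the labels, and so few libraries cannot decide it. With the replicate number as a block, 0 members passed (Sfrp1 -0.74, edgeR adjusted p = 0.132) and 301 genes in all. That fit compares the groups only within the shared numbers 2 and 3. Its count of 301 is thus not like the 76 of the main fit. Depth limits Sfrp4 and Sfrp5, with at most 38 counts in a library.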

Other observations

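Sfrp2 and Sostdc1 varied within the groups in opposite ways. In each group the library with high Xist counts, wild type replicate 3 and knockout replicate 2, had the most Sfrp2 (618 and 601 CPM) and the least Sostdc1 (29.0 and 32.2 CPM). The other 4 libraries held 555 to 585 CPM of Sfrp2 and 42.1 to 55.2 CPM of Sostdc1. This was noticed after the values were seen, rests on 2 libraries and was not tested.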
